A study of Mus musculus with 9 samples.

Results

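The 40 genes described here encode the parts of the junctions that hold epidermal cells together, seal the space between them and connect their cytoplasm. They are given by name, by their role in junctions and with no threshold on a measured value, although earlier results of these data were known when they were chosen, and all 40 were found among the 52550 genes of the table. The set comprises 8 desmosomal cadherins (Dsg1a, Dsg1b, Dsg1c, Dsg2, Dsg3, Dsc1, Dsc2 and Dsc3), 5 proteins of the desmosomal plaque (Dsp, Pkp1, Pkp2, Pkp3 and Jup), 4 desmosome-associated proteins (Perp, Cdsn, Ppl and Evpl), 5 proteins of the adherens junction (Cdh1, Cdh3, Ctnna1, Ctnnb1 and Ctnnd1), 13 of the tight junction (Cldn1, Cldn3, Cldn4, Cldn7, Cldn8, Cldn12, Cldn23, Ocln, Tjp1, Tjp3, F11r, Marveld2 and Cgn) and 5 channel proteins, the connexins Gja1, Gjb2, Gjb5 and Gjb6 and the pannexin Panx1, grouped here as gap junction genes. RNA was sequenced from the ear epidermis of wild type mice labelled as C57BL/6 (C57BL/6J in the methods) and 8 weeks old, in 3 groups of 3 libraries each. VAS + H2O mice had Vaseline on the skin and water by gavage. IMQ + H2O mice had imiquimod cream, a TLR7 agonist that induces psoriasis-like dermatitis, and the same gavage of water. IMQ + XYF mice had imiquimod and Xiao-Yin-Fang (XYF), a decoction of medicinal herbs, at 23.3 mg/g. Every mouse was gavaged with 200 µl for 10 days and had Vaseline or imiquimod for 5 days. By the labels and the methods the gavage was given once a day, whereas a figure legend of the study says 2 times a day. No library of mice given XYF without imiquimod was among these 9. The methods speak of RNA from ear sheets of 2 mice, without saying whether this means 2 mice per library or in all, and the labels name no animals. It is therefore not known whether the 3 libraries of a group came from separate animals, and p-values measure the spread between libraries, part of which may be technical.

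Desmosomes anchor the keratin filaments of neighbouring keratinocytes to each other. Desmogleins and desmocollins bridge the gap between cells, and plakoglobin (Jup), plakophilins and desmoplakin (Dsp) link their tails to keratin. In stratified epidermis the desmosomal cadherins are used by layer, with Dsg3 mostly in the lower layers and Dsg1 and Dsc1 mostly in the upper ones. Adherens junctions join actin filaments through classical cadherins and catenins. Tight junctions, built from claudins, occludin and zonula occludens proteins, seal the granular layer and form part of the barrier to water loss. Gap junctions are channels of connexins through which small molecules pass from cell to cell, and connexin 26 (Gjb2) and connexin 30 (Gjb6) are known as connexins that rise in wounded and psoriatic epidermis.

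Total counts were 30298275 to 64771160 per library, and the 40 genes took 2.7% to 3.05% of them. Levels are given as CPM, that is counts relative to the library total with TMM factors over the 9 libraries, and levels of different genes are compared only as CPM per kilobase of exons. The keratinocyte genes Krt5 and Krt10 were abundant in every library, at 6232 to 10392 and 23653 to 37952 CPM. Other keratinocyte markers differed between groups. Means in VAS + H2O, IMQ + H2O and IMQ + XYF were 2284, 538 and 660 CPM for Krt15 and 1199, 3303 and 3010 for Krt1. In IMQ + H2O replicates 1 to 3, Flg was at 1015, 537 and 159.6 CPM and Lor at 833, 636 and 273. The part of such shifts in the junction genes was not tested. Some libraries stood apart. VAS + H2O replicate 2 had the most RNA of other tissues, with 6 dermal fibroblast markers at a summed 624 CPM against 66.3 and 99.8 in replicates 1 and 3, and 5 skeletal muscle markers at 149.7 against 3.3 and 4.19. The 6 cartilage markers, of which Matn1 was at 0 in every library, summed to 164 to 382 CPM in VAS + H2O, 32.2 to 75 in IMQ + H2O and 116 to 176 in IMQ + XYF. IMQ + H2O replicate 3 differed from its own group more than any other library did, with a chi-square of the counts per gene of 76.2 and 79.4 against the other replicates, which differed from each other by 24.8. Results that rest on either library are given below with and without it. In bulk samples, fewer cells of a type and less RNA per cell cannot be told apart.

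Per length, the desmosome genes were the most abundant of the set in VAS + H2O epidermis. Perp, a membrane protein of desmosomes, was first at 2058 ± 149 CPM per kb (SD, n = 3), followed by Dsp at 691 ± 65.6, Pkp1 at 581 ± 39.8, Dsg1a at 487 ± 40.3 and Dsc3 at 386 ± 31.9. Each of these 5 lay above the next by more than the SDs of both. By group means the same 5 genes held the first 5 places in the same order in both imiquimod groups. There the step from Dsg1a to Dsc3 was within the SD of Dsg1a, at 363 ± 75.5 and 318 ± 20.2 in IMQ + H2O and 349.8 ± 18.2 and 334 ± 7.81 in IMQ + XYF. In IMQ + H2O replicate 3 the order of these genes was reversed, with Dsg1a at 278 and Dsc3 at 311 CPM per kb. E-cadherin (Cdh1) was at 165 ± 10.3, the most abundant tight junction gene, Cldn4, at 87.1 ± 8.28, and the most abundant connexin, Gjb5, at 79.3 ± 12.2. At the other end stood Dsc2 at 1.12 ± 0.213, the plakophilin Pkp2 at 0.34 ± 0.054 and the claudin Cldn7 at 0.0746 ± 0.0143 CPM per kb. Cldn7 had 4 to 17 counts per library and did not pass the filter on low counts, so 39 of the 40 genes were tested.

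The first comparison, IMQ + H2O against VAS + H2O, shows which junction genes differ in the dermatitis model. Gap junction genes rose most: Gjb2 9.65-fold, Gjb6 4.37-fold and Gja1 2.94-fold. The cadherins Cdh3 and Dsg3 rose 2.58-fold and 2.49-fold, while the desmosomal plaque showed no called change. With an adjusted p of at most 0.05 in edgeR's quasi-likelihood test, adjusted by Benjamini-Hochberg over all genes tested, 9 of the 39 genes were higher and 3 were lower, and 27 did not pass. Among all 18009 genes tested, 12.7% were higher and 9.41% lower. By the study's definition of a differentially expressed gene (DEG), which asks in addition for a change of 1 or more on the log2 scale in either direction, 5 of the 39 were DEGs (Gjb2, Gjb6, Gja1, Cdh3 and Dsg3) and all 5 were higher, where 3.64% of all genes were DEGs with higher and 4.04% DEGs with lower counts. The median log2 fold change of the 39 was 0 and that of all genes was -0.03. For 14 genes every IMQ + H2O library lay above every VAS + H2O library, and for 8 every one lay below, against 23.4% and 21.6% of all genes.

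**Figure D1:**
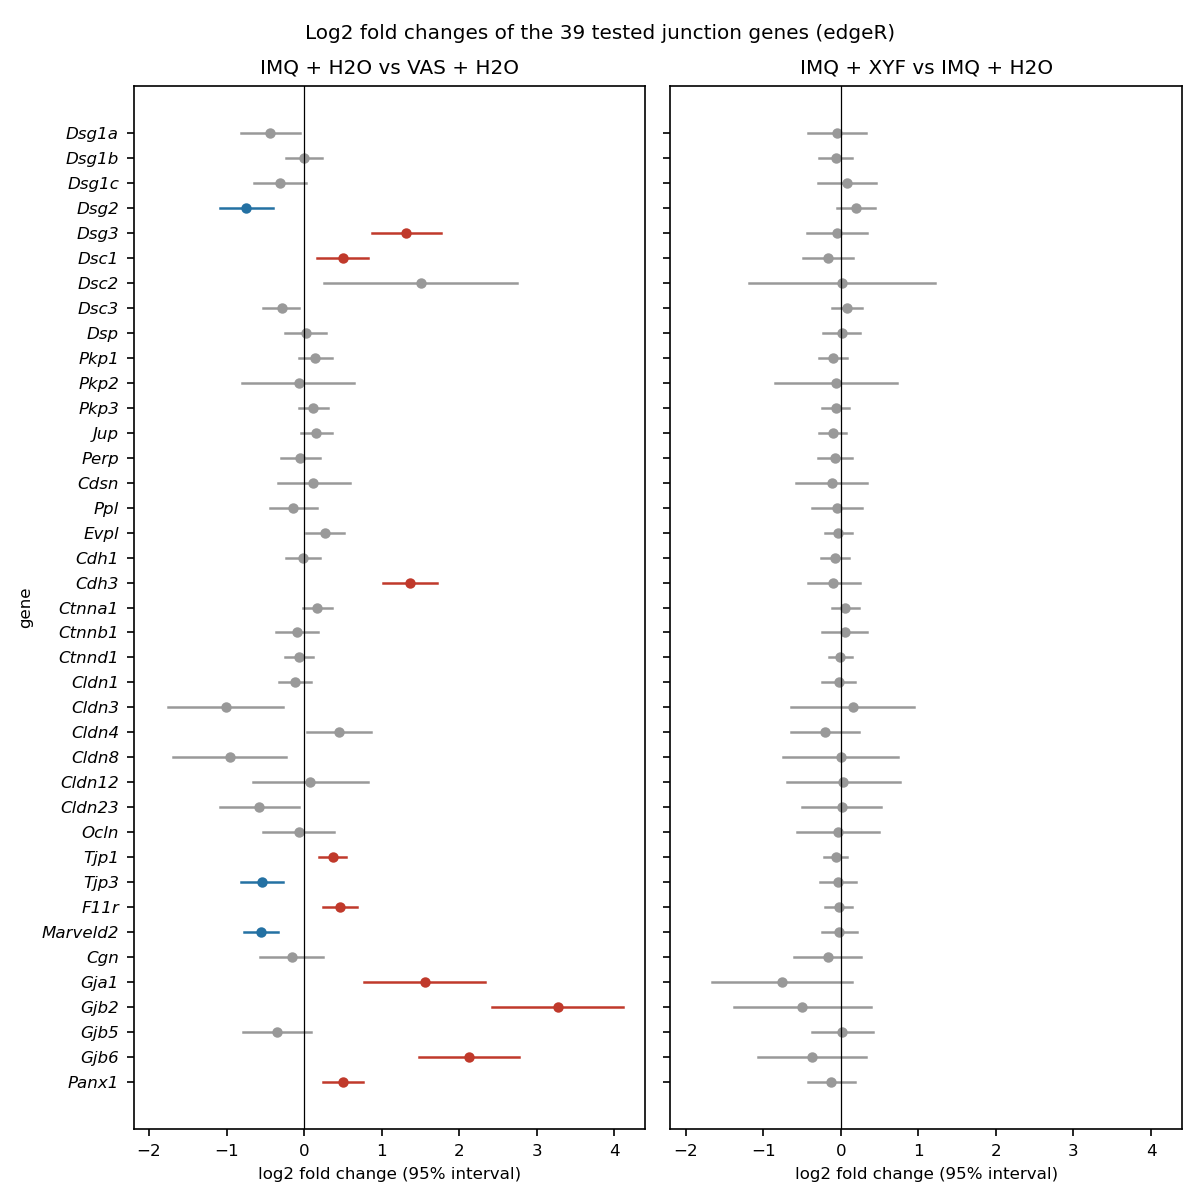
Log2 fold change (x axis) of each of the 39 tested junction genes (y axis) in edgeR, with its 95% interval as a line, for IMQ + H2O against VAS + H2O (left) and IMQ + XYF against IMQ + H2O (right). Red marks genes that were higher and blue genes that were lower with an adjusted p of at most 0.05, and grey those that did not pass. On the left 9 genes are red and 3 blue, with Gjb2 farthest out at 3.27, and on the right every gene is grey, with Gja1 farthest from 0 at -0.76.

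Among the gap junction genes, 4 of 5 rose, where 12.7% of all genes did. Gjb2, which encodes connexin 26, was at 40, 52.5 and 38.9 CPM in VAS + H2O replicates 1 to 3, at 297, 315 and 668 CPM in IMQ + H2O, and at 361, 192 and 350.5 CPM in IMQ + XYF. Every imiquimod library lay far above every Vaseline library, and IMQ + H2O replicate 3 was about as high as the other two together. In IMQ + H2O the log2 fold change was 3.27 (SE 0.35, adjusted p = 0.00575), and without IMQ + H2O replicate 3 it was 2.79 (adjusted p = 0.00201). Gjb6, which encodes connexin 30, was at 8.38, 7.62 and 8.06 CPM in VAS + H2O, 26.9, 27.4 and 51.6 in IMQ + H2O, and 30.5, 20.5 and 30.6 in IMQ + XYF. Its pattern over the 9 libraries had the shape of that of Gjb2, with replicate 3 of IMQ + H2O again the highest. It gave a log2 fold change of 2.13 (SE 0.27, adjusted p = 0.00766), and 1.75 without that library. The genes are neighbours on chromosome 14 (GRCm38), with Gjb2 at chr14:57098600-57104702 and Gjb6 at chr14:57123303-57133611, both on the minus strand and 18600 bp apart.

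Gja1, which encodes connexin 43, the connexin found in most tissues, was at 172, 81.2 and 190.2 CPM in VAS + H2O, 481, 317 and 515 in IMQ + H2O, and 194, 159 and 421 in IMQ + XYF. IMQ + H2O did not overlap with VAS + H2O, whereas 2 of the 3 IMQ + XYF libraries lay close to the higher Vaseline libraries. The lowest value was in VAS + H2O replicate 2, the library with the most fibroblast and muscle RNA. Its log2 fold change in IMQ + H2O was 1.56 (SE 0.33, adjusted p = 0.0211). Gja1 lost the call without IMQ + H2O replicate 1 (1.52, adjusted p = 0.0575), IMQ + H2O replicate 3 (1.42, adjusted p = 0.0601) or VAS + H2O replicate 1 (1.68, adjusted p = 0.0554), and kept it without VAS + H2O replicate 2 (1.27, adjusted p = 0.0365). Panx1, a pannexin whose channels release ATP, was at 25, 23.9 and 25.1 CPM in VAS + H2O, 32.3, 33.4 and 40.1 in IMQ + H2O, and 34, 34.5 and 27.8 in IMQ + XYF. Its rise was small, with no overlap between IMQ + H2O and VAS + H2O (log2 fold change 0.5, SE 0.11, adjusted p = 0.0227), and the call was lost without VAS + H2O replicate 1 (adjusted p = 0.0662) or replicate 2 (adjusted p = 0.0756).

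Gjb5, which encodes connexin 31.1 and is typical of keratinocytes, was not called. It was at 129.8, 119.7 and 160 CPM in VAS + H2O, 129.7, 113 and 81.5 in IMQ + H2O, and 109, 116 and 102 in IMQ + XYF, so that IMQ + H2O overlapped with VAS + H2O. Its log2 fold change in IMQ + H2O was -0.35 (95% interval -0.79 to 0.09, adjusted p = 0.212). The make-up of the 4 connexins therefore differed between groups. Summed per length they were at 115 ± 14.5 CPM per kb in the VAS + H2O libraries, 296 ± 85.7 in IMQ + H2O and 224 ± 46.8 in IMQ + XYF (SD, n = 3 each). Gjb5 made up 68.9% ± 2 of that sum in the VAS + H2O libraries, 23% ± 9.59 in IMQ + H2O and 29.5% ± 8.8 in IMQ + XYF. Gjb2 made up 16.2% ± 4.65, 57.9% ± 11.3 and 55% ± 7.5. Shares of a sum move together by construction, and they are given as a description with no test.

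**Figure D2:**
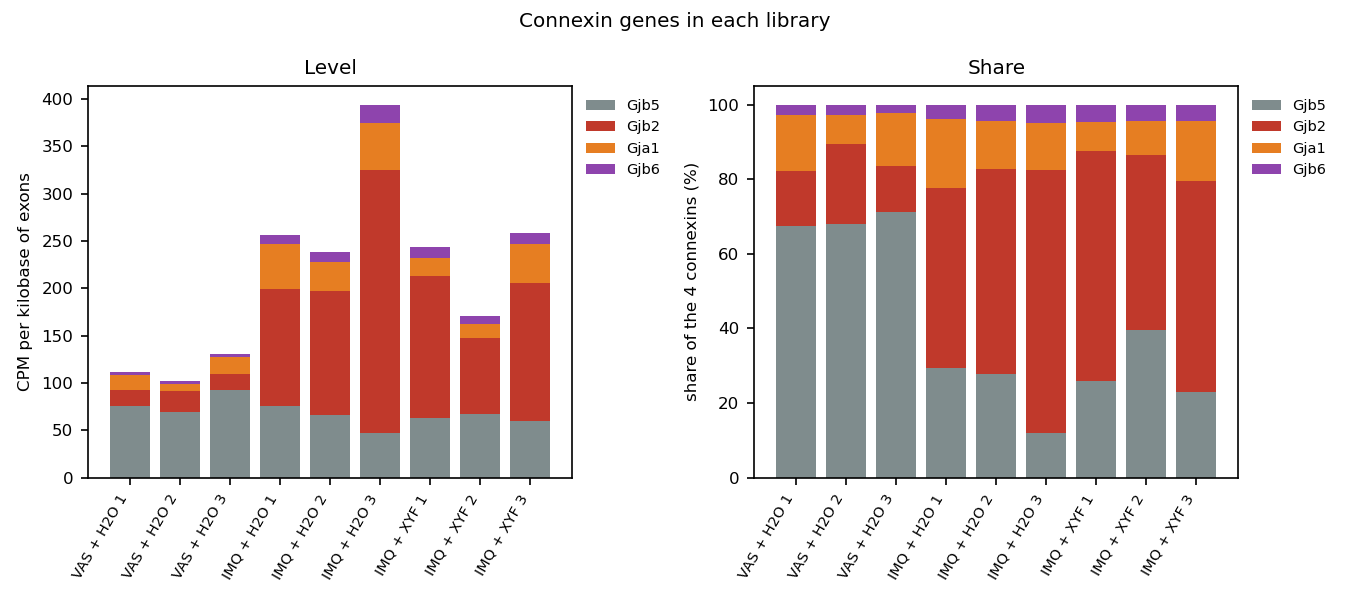
Connexin genes in each of the 9 libraries, as stacked bars of CPM per kilobase of exons (left) and as percent of the sum of the 4 genes (right). Gjb5, in grey, is the largest part of the 3 VAS + H2O bars, and Gjb2, in red, is the largest part of the 6 imiquimod bars, with a share of 46.8% to 70.4%.

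**Figure D3:**
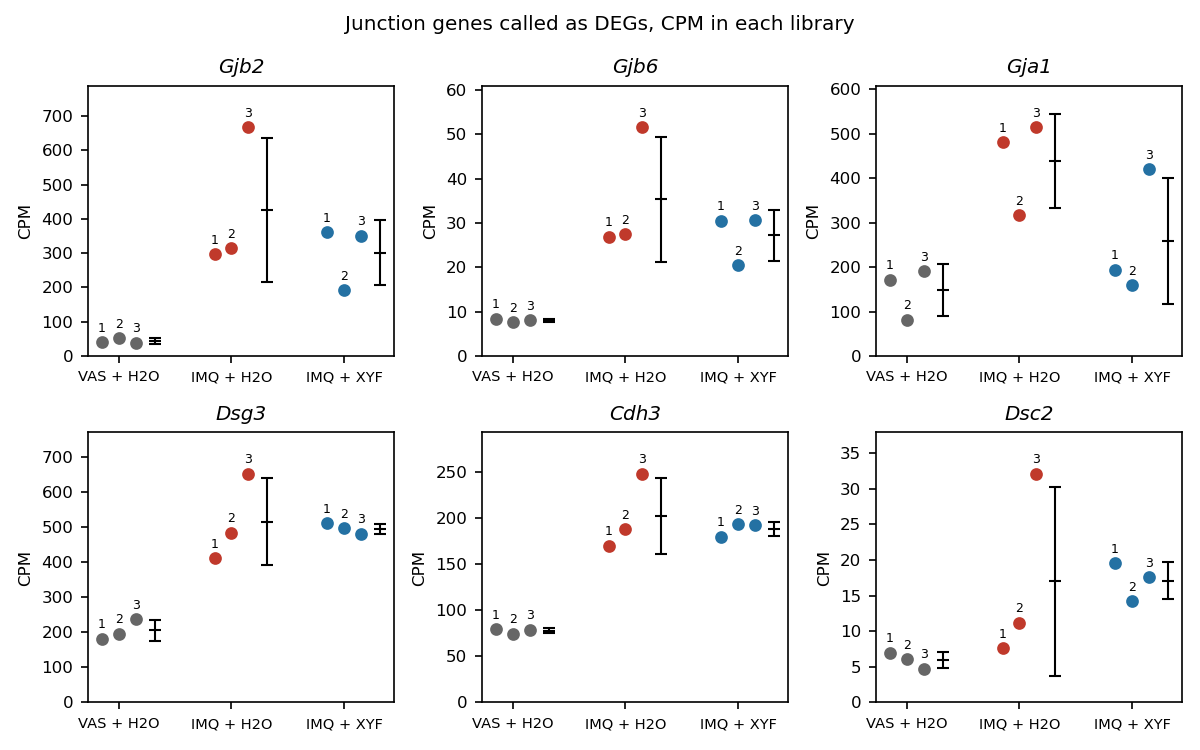
CPM in each library (y axis, starting at 0) of the 6 junction genes that were DEGs in IMQ + H2O, in IMQ + XYF or in both, against VAS + H2O. Dots are libraries numbered by replicate, and the bar beside them is the mean with the SD of the 3 libraries. The grey VAS + H2O dots lie below the red and blue dots in every panel except that of Gja1, where IMQ + XYF at 159 CPM lies below 2 of the Vaseline libraries.

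The start regions of these 4 connexin genes are shown because the genes are of one family and only some of them rose. The sequences are the 250 bases before the start site given by RefSeq on GRCm38.p6, in the direction of transcription. They lie at chr14:57104703-57104952 on the minus strand for Gjb2, chr14:57133612-57133861 on the minus strand for Gjb6, chr10:56377050-56377299 on the plus strand for Gja1 and chr4:127358165-127358414 on the minus strand for Gjb5. Capitals mark matches to 5 motifs searched on both strands, AP-1 (TGANTCA), grainyhead-like (AACNGGTT), STAT (TTCNNNGAA), the E-box bound by Snail (CAGGTG) and NF-kappaB (GGGANTTCC).

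Gjb2: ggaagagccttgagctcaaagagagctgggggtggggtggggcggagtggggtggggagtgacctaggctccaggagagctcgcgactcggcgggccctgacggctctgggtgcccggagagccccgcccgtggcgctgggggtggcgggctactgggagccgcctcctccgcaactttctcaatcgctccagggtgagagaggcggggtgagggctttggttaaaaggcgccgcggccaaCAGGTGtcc

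Gjb6: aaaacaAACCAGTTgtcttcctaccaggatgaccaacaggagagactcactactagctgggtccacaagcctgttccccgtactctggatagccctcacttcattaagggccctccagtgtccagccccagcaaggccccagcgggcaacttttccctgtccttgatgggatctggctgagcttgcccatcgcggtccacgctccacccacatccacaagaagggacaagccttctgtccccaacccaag

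Gja1: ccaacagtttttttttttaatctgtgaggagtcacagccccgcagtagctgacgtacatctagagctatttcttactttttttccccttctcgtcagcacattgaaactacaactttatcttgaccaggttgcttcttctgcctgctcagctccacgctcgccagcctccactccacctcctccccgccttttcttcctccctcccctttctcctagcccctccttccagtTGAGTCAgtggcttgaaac

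Gjb5: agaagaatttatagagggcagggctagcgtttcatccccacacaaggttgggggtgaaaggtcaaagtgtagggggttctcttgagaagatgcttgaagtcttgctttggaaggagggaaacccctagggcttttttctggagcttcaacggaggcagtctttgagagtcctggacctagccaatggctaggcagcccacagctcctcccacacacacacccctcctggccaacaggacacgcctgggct

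The window of Gjb2 had a Snail E-box 9 bases before the start and a GC content of 69.2%. That of Gjb6 had a grainyhead-like match on the opposite strand 244 bases before the start, that of Gja1 had an AP-1 match 19 bases before it, and that of Gjb5 had none of the 5. No motif was shared by the 3 genes that rose. Among 32851 windows of the same length, 17.2% held the E-box, 1.79% the grainyhead-like motif, 6.75% AP-1, 7.02% STAT and 1.43% NF-kappaB. RefSeq windows were at hand for 21 of the 40 genes, 30 windows in all, of which 9 held the E-box (Cdsn, Cldn4, Cldn7, F11r, Gjb2, Ocln and Tjp3), 2 the grainyhead-like motif (Cgn and Gjb6), 3 AP-1 (Cldn4, F11r and Gja1), 4 STAT (Cdsn, Cldn7 and Cldn12) and 0 NF-kappaB. A match says that the letters are there, not that the site is used.

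Of the 8 desmosomal cadherins, 2 rose, 1 fell and 5 did not pass, where 12.7% of all genes rose and 9.41% fell. Dsg3, the desmoglein of the basal layers and the antigen of pemphigus vulgaris, was at 182, 196 and 238 CPM in VAS + H2O, 410.5, 484 and 652 in IMQ + H2O, and 510.2, 496 and 481 in IMQ + XYF. The 6 imiquimod libraries lay well above the 3 Vaseline libraries. Dsg3 had a log2 fold change in IMQ + H2O of 1.32 (SE 0.19, adjusted p = 0.00921), and 1.11 without IMQ + H2O replicate 3. Dsc1, the desmocollin of the upper layers, was at 878, 823 and 812 CPM in VAS + H2O, 1303, 1328 and 949 in IMQ + H2O, and 1027, 1051 and 1092 in IMQ + XYF. The groups did not overlap, but replicate 3 of IMQ + H2O lay much closer to Vaseline than the other two did. Its log2 fold change of 0.5 (SE 0.14, adjusted p = 0.0453) passed only narrowly. The call was lost without IMQ + H2O replicate 1 or 2 or any 1 of the 3 VAS + H2O libraries (adjusted p = 0.0976 to 0.115), and held without IMQ + H2O replicate 3 (0.64, adjusted p = 0.0137).

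Dsg2, the desmoglein of simple epithelia and of the basal layer and hair follicle, fell from 50.1, 66.2 and 52.6 CPM in VAS + H2O to 33.8, 37.9 and 30.1 in IMQ + H2O, and was at 38, 37.2 and 40.8 in IMQ + XYF. All 6 imiquimod libraries lay below all Vaseline libraries, and the highest value was in VAS + H2O replicate 2, the library with the most RNA of other tissues. For Dsg2 the log2 fold change was -0.75 (SE 0.14, adjusted p = 0.0167), and -0.6 (adjusted p = 0.0457) without that library. The part of the other tissues in the result was not tested. Without IMQ + H2O replicate 1 it missed the threshold (-0.7, adjusted p = 0.0546). Dsc2, the most widely expressed desmocollin across epithelia, was low, at 6.96, 6.07 and 4.73 CPM in VAS + H2O, 7.57, 11.2 and 32.1 in IMQ + H2O, and 19.5, 14.2 and 17.6 in IMQ + XYF. Its mean in IMQ + H2O rested largely on replicate 3. The log2 fold change was 1.51 (SE 0.53, adjusted p = 0.0828), 0.65 without that replicate (adjusted p = 0.146) and 1.9 without replicate 1, where it passed (adjusted p = 0.0471). With all libraries, DESeq2 called it (1.53, adjusted p = 0.00611), and so did 1 edgeR fit over all 9 libraries (1.52, adjusted p = 0.0409).

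The remaining desmosomal cadherins include the most abundant ones. Dsg1a, the main mouse desmoglein 1 gene, was at 2795, 2524 and 2980.3 CPM in VAS + H2O, 2212, 2402 and 1581 in IMQ + H2O, and 1949, 2107 and 1912 in IMQ + XYF, with no overlap between Vaseline and imiquimod libraries. Its log2 fold change in IMQ + H2O of -0.44 (95% interval -0.82 to -0.05) did not pass (adjusted p = 0.101), while DESeq2 called it lower (-0.42, adjusted p = 0.0489). Without IMQ + H2O replicate 3, its lowest library, it was at -0.27 (adjusted p = 0.143). Dsg1b, at 0 (-0.23 to 0.23), and Dsg1c, at -0.31 (-0.65 to 0.03), did not pass either. These 3 genes are closely related copies whose likeness in sequence was not measured here. Reads may be divided among them in ways that are not known. Their sum, added after seeing the data, gave -0.32 (adjusted p = 0.169). Dsc3, the desmocollin of the lower layers, had a log2 fold change of -0.29 (-0.53 to -0.06, adjusted p = 0.0748) with no overlap between the groups. As shares of the desmogleins per length, Dsg3 made up 4.35% ± 0.459 in the VAS + H2O libraries, 12.8% ± 4.76 in IMQ + H2O and 12.5% ± 0.561 in IMQ + XYF, while Dsg1a made up 72% ± 0.782, 60.9% ± 5.52 and 61.4% ± 0.565. Of the desmocollins, Dsc1 made up 30.1% ± 1.87, 42.2% ± 4.52 and 38.3% ± 1.14. The sums of the families differed less, with desmogleins at 675 ± 49.6, 592 ± 77 and 569.9 ± 24.7 CPM per kb and desmocollins at 553 ± 33.2, 557 ± 50.1 and 546 ± 6.08. The cluster that holds all 8 genes spans 643592 bp of chromosome 18.

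**Figure D4:**
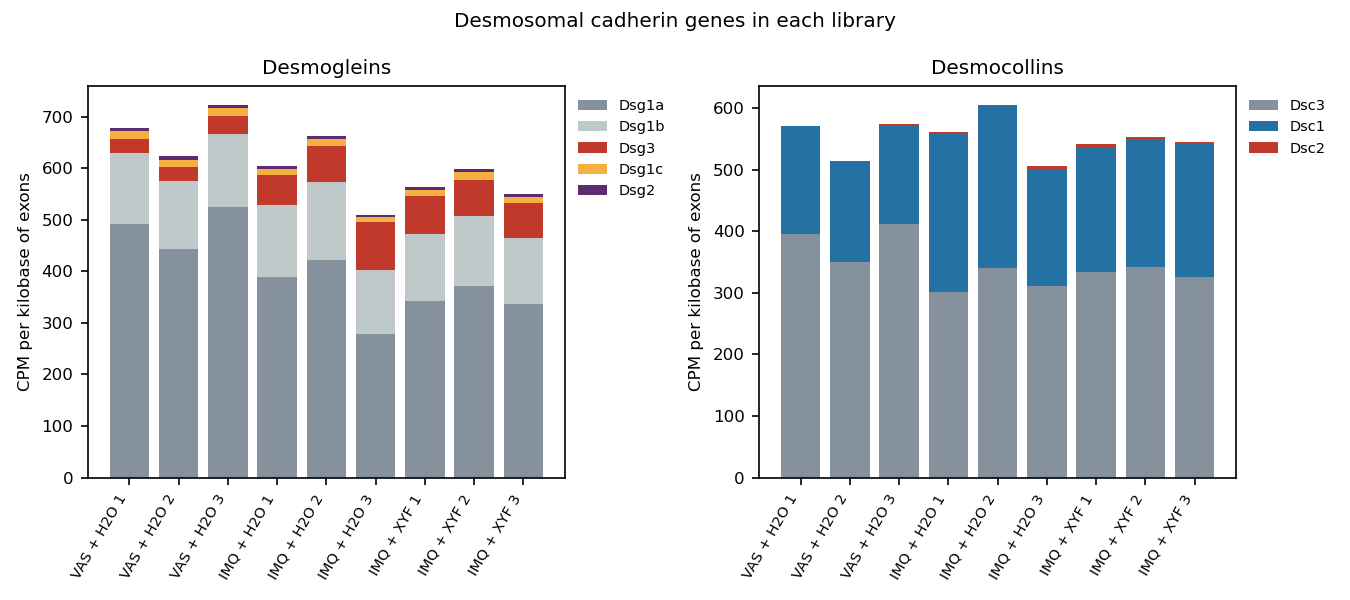
Desmogleins (left) and desmocollins (right) in each of the 9 libraries, as stacked bars of CPM per kilobase of exons. Dsg3, in red, is 3.84% to 4.72% of the desmoglein bars in VAS + H2O, 9.75% to 18.3% in IMQ + H2O and 11.9% to 13% in IMQ + XYF, and Dsc1, in blue, takes a larger part of the desmocollin bars in the 6 imiquimod libraries.

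No gene of the desmosomal plaque was called. None of the 5 genes passed in IMQ + H2O against VAS + H2O by edgeR or by DESeq2, none had an unadjusted p under 0.05 where 37.9% of all genes did, and the log2 fold changes ran from -0.07 to 0.16. Dsp, which ties the plaque to keratin, had a log2 fold change of 0.02 with a 95% interval of -0.25 to 0.28. Pkp1, the main plakophilin of the upper epidermis, was at 0.14 (-0.07 to 0.36), Pkp3 at 0.12 (-0.07 to 0.31) and Jup at 0.16 (-0.04 to 0.36). For Jup and Pkp3 all IMQ + H2O libraries lay above all Vaseline libraries. Jup was at 1676, 1620.4 and 1791 CPM in VAS + H2O, 1969, 1943 and 1837 in IMQ + H2O, and 1732, 1839 and 1765 in IMQ + XYF. Pkp2, at 1.2 to 2.38 CPM over all libraries, had a wide interval (-0.8 to 0.65). Pkp1 made up 83.9% of the plakophilins per length in the VAS + H2O libraries, 84.1% in IMQ + H2O and 83.8% in IMQ + XYF. Of the 4 desmosome-associated genes none passed by either tool, where 22.1% of all genes passed by edgeR. Only Evpl of the 4 had an unadjusted p under 0.05, where 37.9% of all genes did. Counts over 4 genes do not set them apart from all genes. Perp was at -0.05 (-0.3 to 0.2), and Cdsn, the corneodesmosin of the horny layer, at 0.12 (-0.34 to 0.59). The plakins of the cornified envelope, periplakin (Ppl) and envoplakin (Evpl), were at -0.14 (-0.44 to 0.17) and 0.27 (0.03 to 0.51, adjusted p = 0.097). Evpl passed without VAS + H2O replicate 3 (0.4, adjusted p = 0.0408).

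Of the 5 adherens junction genes only Cdh3 passed, where 22.1% of all genes did. Cdh3, which encodes P-cadherin of the basal layer and hair follicle, was at 79.2, 74.4 and 79 CPM in VAS + H2O, 169.7, 188 and 248 in IMQ + H2O, and 179.8, 193 and 192 in IMQ + XYF. The Vaseline libraries lay close together and no imiquimod library came near them. The log2 fold change was 1.37 (SE 0.15, adjusted p = 0.00575), and 1.19 without IMQ + H2O replicate 3. Its neighbour Cdh1, which encodes E-cadherin and lies 46053 bp away on chromosome 8, had a log2 fold change of -0.02 (95% interval -0.23 to 0.2). Per length Cdh1 was at 165 ± 10.3 and Cdh3 at 17.7 ± 0.615 CPM per kb in VAS + H2O, and at 164 ± 10.7 and 46.1 ± 9.35 in IMQ + H2O. The catenins Ctnna1, Ctnnb1 and Ctnnd1 were at 0.17 (-0.02 to 0.36), -0.09 (-0.36 to 0.18) and -0.07 (-0.25 to 0.11).

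Of the 12 tight junction genes tested, 2 rose, 2 fell and 8 did not pass, where 12.7% of all genes rose and 9.41% fell. Counts this small do not set the tight junction genes apart from all genes. The rises were in Tjp1, the scaffold ZO-1, and F11r, the adhesion molecule JAM-A. Tjp1 was at 120, 126 and 131 CPM in VAS + H2O, 158, 169 and 165 in IMQ + H2O, and 153, 162 and 153 in IMQ + XYF. F11r was at 83, 88.2 and 101 CPM in VAS + H2O, 121, 124 and 131 in IMQ + H2O, and 129, 123 and 114 in IMQ + XYF. In both genes the 6 imiquimod libraries lay above the 3 Vaseline libraries by a modest step, 1.29-fold for Tjp1 (log2 fold change 0.37, SE 0.07, adjusted p = 0.0182) and 1.37-fold for F11r (0.46, SE 0.09, adjusted p = 0.0185). Tjp1 lost the call without VAS + H2O replicate 1 (adjusted p = 0.063) or 2 (adjusted p = 0.0586), and so did F11r (adjusted p = 0.0577 and 0.0647).

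The tight junction genes that fell were Marveld2, which encodes tricellulin, the protein of tricellular contacts, and Tjp3, the scaffold ZO-3. Marveld2 was at 45.7, 41.5 and 47.1 CPM in VAS + H2O, 29.8, 33.6 and 29.1 in IMQ + H2O, and 31.7, 31.2 and 28.2 in IMQ + XYF. Tjp3 was at 147, 128 and 155 CPM in VAS + H2O, 107, 106 and 85.3 in IMQ + H2O, and 93.1, 96.7 and 98.9 in IMQ + XYF. Again no imiquimod library overlapped with Vaseline, with the order now turned. Marveld2 was 1.47-fold lower (log2 fold change -0.55, SE 0.09, adjusted p = 0.0128) and Tjp3 1.46-fold lower (-0.54, SE 0.12, adjusted p = 0.0209). Without IMQ + H2O replicate 1, Marveld2 missed the threshold (adjusted p = 0.0522), and so did Tjp3 (adjusted p = 0.0549), which also missed it without VAS + H2O replicate 1 (adjusted p = 0.0652) or 3 (adjusted p = 0.0684). Exons of Tjp3 overlap by 40 bp with those of Apba3 on the other strand, and whether the counting used strand is not given in the sources used here.

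**Figure D5:**
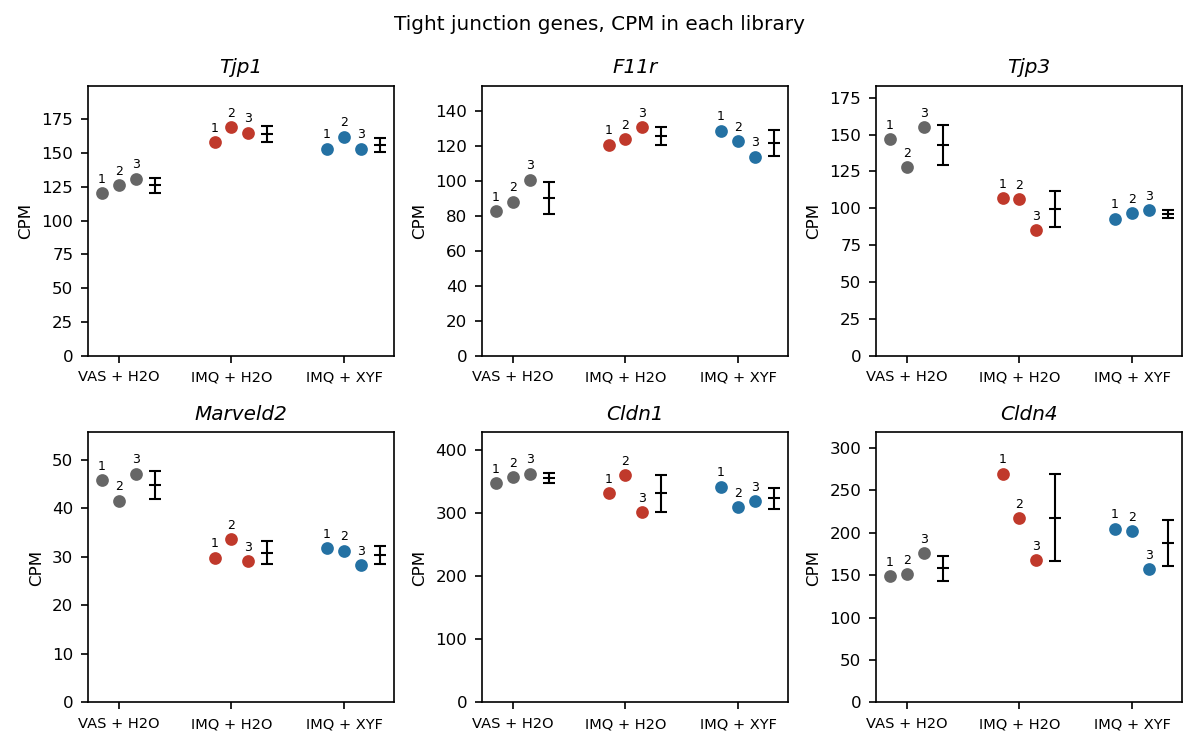
CPM in each library (y axis, starting at 0) of the 4 tight junction genes that passed in IMQ + H2O against VAS + H2O (Tjp1, F11r, Tjp3 and Marveld2) and of the claudins Cldn1 and Cldn4. Dots are libraries numbered by replicate, and the bar beside them is the mean with the SD of the 3 libraries. Tjp1 and F11r are higher and Tjp3 and Marveld2 lower in all 6 imiquimod libraries than in the Vaseline libraries, while Cldn1 and Cldn4 overlap between VAS + H2O and IMQ + H2O.

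No claudin passed in this comparison by edgeR. Cldn1, the claudin needed for the barrier of the epidermis, had a log2 fold change of -0.12 (95% interval -0.32 to 0.09). Cldn4 was at 149, 151 and 176 CPM in VAS + H2O and 269.7, 217 and 168 in IMQ + H2O, so its groups overlapped through IMQ + H2O replicate 3. Its log2 fold change of 0.45 (adjusted p = 0.105) became 0.61 and passed without that library (adjusted p = 0.0374). Cldn3, Cldn8 and Cldn23 lay lower in all IMQ + H2O libraries than in all VAS + H2O libraries, at log2 fold changes of -1.01 (-1.76 to -0.27), -0.96 (-1.69 to -0.23) and -0.58 (-1.09 to -0.07) and adjusted p values of 0.0613, 0.066 and 0.0965. Cldn3 and Cldn8 were low genes, with 57 to 260 and 44 to 230 counts per library. DESeq2 called Cldn3, Cldn8 and Cldn23 lower and Cldn4 higher. Cldn12 was at 0.08 (-0.66 to 0.82), occludin (Ocln) at -0.07 (-0.53 to 0.39) and the scaffold cingulin (Cgn) at -0.16 (-0.57 to 0.25). Per length, Cldn4 made up 46.3% ± 2.06 of the 7 claudins in VAS + H2O and 57.2% ± 5.07 in IMQ + H2O, and Cldn1 39.2% ± 1.56 and 33.2% ± 3.71.

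The calls on Gjb2, Gjb6, Cdh3 and Dsg3 held with each of the 6 libraries left out in turn. The number of genes past the threshold fell from 12 to 6 without VAS + H2O replicate 1 (4 higher and 2 lower) and to 8 without VAS + H2O replicate 2 (5 higher and 3 lower). Without IMQ + H2O replicate 1 it was 9 (8 higher and 1 lower, with Dsc2 and Cldn3 gained), and it was 12 without IMQ + H2O replicate 3, with Gja1 lost and Cldn4 gained. The share of all genes past the threshold, 22.1% with all libraries, was 9.73%, 7.77%, 11.4% and 11.6% without these libraries in turn. DESeq2 called 11 of the 39 genes higher and 7 lower, where it called 13.9% and 11.1% of all genes.

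The second comparison, IMQ + XYF against IMQ + H2O, tests the effect of XYF under imiquimod. No junction gene passed. By edgeR 0 of 39 genes had an adjusted p of at most 0.05, 0 had an unadjusted p under 0.05, and DESeq2 called 0, where it called 0.89% of all genes higher and 0.0761% lower. Calls were scarce among all genes too, with 0.0281% of 17793 past the adjusted threshold and 5.43% with an unadjusted p under 0.05. The log2 fold changes of the 39 genes ran from -0.76 to 0.2 with a median of -0.05, and 28 were below 0 and 11 above, where the median of all genes was 0. Only Pkp1 had groups without overlap, at 3314, 3336 and 3111 CPM in IMQ + H2O and 2942, 3013 and 3089 in IMQ + XYF, against 10.7% of all genes. Its log2 fold change was -0.1 (95% interval -0.28 to 0.08), and VAS + H2O libraries were at 2846, 2762 and 3143 CPM.

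The gap junction genes Gja1, Gjb2 and Gjb6 had the lowest log2 fold changes in this comparison, with wide intervals. Gja1 had a log2 fold change of -0.76 (95% interval -1.66 to 0.14, unadjusted p = 0.087), with IMQ + XYF replicates 1 and 2 at 194 and 159 CPM below all IMQ + H2O libraries and replicate 3 at 421 among them. Gjb2 was at -0.5 (-1.38 to 0.39) and Gjb6 at -0.37 (-1.07 to 0.32). Without IMQ + H2O replicate 3, Gjb2 was at -0.02 and Gjb6 at 0, whereas Gja1 stayed at -0.63. Panx1 was at -0.13 (-0.43 to 0.18) and Gjb5 at 0.02 (-0.37 to 0.41).

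For most other junction genes the intervals were narrow. Dsg2, the gene with the highest value, was at 0.2 (95% interval -0.05 to 0.44), with 33.8, 37.9 and 30.1 CPM in IMQ + H2O and 38, 37.2 and 40.8 in IMQ + XYF. Dsg3 was at -0.05 (-0.44 to 0.34), Cdh3 at -0.1 (-0.43 to 0.24), Tjp1 at -0.07 (-0.22 to 0.08), F11r at -0.03 (-0.21 to 0.14), Marveld2 at -0.02 (-0.25 to 0.21) and Tjp3 at -0.04 (-0.27 to 0.19). In IMQ + H2O against VAS + H2O, which shares the IMQ + H2O libraries, the same 6 genes were at 1.32, 1.37, 0.37, 0.46, -0.55 and -0.54. Jup was at -0.1 (-0.28 to 0.07) and Dsc1 at -0.17 (-0.49 to 0.15). Dsc2 was at 0.01 with the widest interval (-1.18 to 1.21), and at 0.86 (adjusted p = 0.42) without IMQ + H2O replicate 3.

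The third comparison, IMQ + XYF against VAS + H2O, gives the state of the junction genes in treated dermatitis relative to normal epidermis, and shares its Vaseline libraries with the first. Of the 39 genes 10 were higher and 6 lower, where 16.7% and 12% of 17954 genes were. The DEGs were Gjb2 (log2 fold change 2.78, SE 0.27, adjusted p = 0.00118), Gjb6 (1.76, SE 0.17, adjusted p = 0.00128), Dsc2 (1.53, SE 0.19, adjusted p = 0.00243), Cdh3 (1.28, SE 0.06, adjusted p = 0.000167) and Dsg3 (1.27, SE 0.11, adjusted p = 0.000951), 5 in all where 7.64% of all genes were DEGs. All 5 were called with each library left out in turn. Dsc2 had nearly the same log2 fold change in IMQ + H2O (1.51), where it passed by DESeq2 but not by the edgeR test of the pair and its libraries were spread from 7.57 to 32.1 CPM against 14.2 to 19.5 with XYF. Gja1 did not pass (0.8, 95% interval -0.25 to 1.86, adjusted p = 0.22), and its difference between IMQ + XYF and IMQ + H2O did not pass either.

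Smaller rises in IMQ + XYF against VAS + H2O were called for F11r (0.43, adjusted p = 0.0146), Panx1 (0.38, adjusted p = 0.0338), Dsc1 (0.33, adjusted p = 0.0132), Tjp1 (0.31, adjusted p = 0.0131) and Ctnna1, the alpha-catenin (0.23, adjusted p = 0.0306). Lower were Tjp3 (-0.58, adjusted p = 0.00401), Cldn23 (-0.57, adjusted p = 0.0173), Marveld2 (-0.56, adjusted p = 0.00483), Dsg2 (-0.54, adjusted p = 0.0163), Dsg1a (-0.48, adjusted p = 0.0105) and Cgn (-0.32, adjusted p = 0.0426). The 3 Dsg1 copies summed were at 3409.5, 3098 and 3611 CPM in VAS + H2O, 2814, 3062 and 2116 in IMQ + H2O, and 2513, 2709 and 2468 in IMQ + XYF, lower with XYF than with Vaseline by a log2 fold change of -0.4 (adjusted p = 0.019). Tjp1, F11r, Tjp3 and Marveld2 held their calls with each library left out. Ctnna1 lost its call without any 1 library except VAS + H2O replicate 3, Panx1 without any except IMQ + XYF replicate 3, and Cgn and Cldn23 without any except replicate 2 of either group (adjusted p = 0.0561 to 0.154 over these genes). Dsg2 lost its call without IMQ + XYF replicate 1 (adjusted p = 0.0643) or 2 (adjusted p = 0.0624), and Dsg1a (adjusted p = 0.0528) and Dsc1 (adjusted p = 0.0569) without IMQ + XYF replicate 3. The number of lower genes was 3 in place of 6 without IMQ + XYF replicate 1 and also without replicate 3.

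Junction genes outside the set were looked at through a list of 69 further cadherins, catenins, nectins, claudins, connexins and tight junction proteins found in the table, of which 43 were tested in IMQ + H2O against VAS + H2O. There 5 rose and 5 fell, where 12.7% and 9.41% of all genes did. These 10 became 1 without VAS + H2O replicate 1, 2 without VAS + H2O replicate 2, 4 without IMQ + H2O replicate 1, 5 without IMQ + H2O replicate 3 and 6 without VAS + H2O replicate 3. The smallest adjusted p values were those of Pkp4, a plakophilin relative (log2 fold change 0.68, SE 0.1, adjusted p = 0.00886), Cdh13, a cadherin anchored to the membrane by a lipid (-0.77, SE 0.16, adjusted p = 0.0192), and Ctnnal1, a relative of alpha-catenin (-0.45, SE 0.09, adjusted p = 0.0197). Pkp4 was at 65 to 73.2 CPM in VAS + H2O, 101 to 121 in IMQ + H2O and 106 to 135 in IMQ + XYF. Cdh13 was at 88.1 to 106, 45.3 to 69.3 and 49.6 to 52.7 CPM, and Ctnnal1 at 79 to 85.3, 55.6 to 68 and 64.3 to 66.7. The DEGs among them were all low. The connexin Gjb1 had 5 to 14 counts per library in VAS + H2O and 23 to 96 in IMQ + H2O (log2 fold change 2.44, adjusted p = 0.0331), the connexin Gja3 16 to 32 and 3 to 9 counts (-1.91, adjusted p = 0.0374), and the junctional adhesion molecule Jam3 38 to 63 and 6 to 23 counts (-2.01, adjusted p = 0.0376). In IMQ + XYF against IMQ + H2O 0 of 42 passed by edgeR or DESeq2, and Jam3 alone had an unadjusted p under 0.05 (1.99, adjusted p = 0.629). Jam3 was at 22 to 122 counts in IMQ + XYF, and the dermal fibroblast markers, whose summed level was 44.6 to 51.7 CPM in IMQ + H2O and 69.7 to 202 in IMQ + XYF, moved with it. Their part in that difference was not tested. In IMQ + XYF against VAS + H2O, 5 of 43 were higher and 7 lower, where 16.7% and 12% of all genes were.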

How the data were processed

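Ear epidermis of 9 samples, 3 per group by their labels, was analysed. The authors deposited whole-number counts per gene without normalization, 1 column per library. The study's methods and the submitters' notes name TruSeq libraries, STAR 2.5 and GRCm38 with Ensembl release 90. The tool and strand setting of the counting are not given in the sources used here, and antisense or overlapping reads could be assigned either way. Ctnnd1 shares 4482 of its 7319 exon bp with Gm28635 on the same strand, which had 0 counts. On the other strand, Ctnnb1 shares 759 of 5192 bp with Ulk4 (488 counts against 153354) and Dsg2 330 of 8268 bp with Gm16090 (84 counts against 15173).

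Each pair of groups was fitted on its 6 libraries over the whole table with R 4.3.3 and edgeR 4.0.16 (TMM, filterByExpr, glmQLFit, glmQLFTest), with Benjamini-Hochberg adjustment and a threshold of 0.05. SEs and 95% intervals come from that test. DESeq2 1.42.0, other size factors, 2 other filters, 1 joint fit, a replicate block, glmTreat and leaving out each library were alternatives. The script was tested on simulated data. With 200 genes changed, edgeR recovered 35% of 2-fold changes in IMQ + H2O against VAS + H2O and 44% in IMQ + XYF against IMQ + H2O. For 4-fold changes it recovered 81% and 82%, so changes near 2-fold could be missed. With no gene changed, edgeR made 0 or 1 false calls per comparison and DESeq2 made 26 to 38. Exon lengths came from the GENCODE M21 annotation of GRCm38 and sequences from RefSeq. Values of all 9 libraries are given for genes that were DEGs in any comparison, for the 12 smallest adjusted p values of the first and for the 5 smallest p values of the second comparison, and for Dsg1a and Gjb5, which were chosen after their values were seen. Other genes are given by fold change and interval. Genes and lists were chosen with earlier results of these data known. Total counts of 30298275 to 64771160 set the precision of each value, and counts are given beside the lowest genes.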

Additional observations from a re-analysis of the deposited data

How the results depend on the processing

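Over the alternatives tried for the 39 junction genes, no log2 fold change called by the main test changed its direction. In IMQ + H2O against VAS + H2O, where 9 genes were higher and 3 lower, DESeq2 called 7 lower and 1 fit over all 9 libraries called 5 lower. Leaving out 1 library gave 4 to 9 higher and 1 to 3 lower, and 1 to 7 of the other junction genes in place of 10. A test against an absolute log2 fold change of 1 (glmTreat) left 1 of 5 DEGs, and 3 of 5 in IMQ + XYF against VAS + H2O. In the latter, where 10 genes were higher and 6 lower, leaving out 1 library gave 8 to 10 higher and 3 to 7 lower. In IMQ + XYF against IMQ + H2O the count was 0 under every alternative run, namely DESeq2, other size factors, other filters, 1 fit over all libraries, the replicate block, glmTreat and each library left out.

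The replicate numbers of the groups were not shown to pair the libraries, since the deviations of same-numbered libraries from their group means correlated by only -0.17 to 0.14. With the replicate number as a block, 8 genes were higher and 3 lower in IMQ + H2O against VAS + H2O, with Dsc1 and Tjp3 lost and Cldn3 gained, and 6 in place of 10 were higher in IMQ + XYF against VAS + H2O. Not every library correlated best with its own number.

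Cldn7, with 4 to 17 counts per library, was too low to test, and intervals of Dsc2, Gja1 and Gjb2 were wide through the spread between 3 libraries.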
